A study of Mus musculus with 28 samples.

Results

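Distal H3K27ac regions that lie under H3K79me2 were described across mouse lung tumours, and 3038 of the 25327 H3K27ac regions examined met the rule. The members were chosen by peaks of 2 of the 4 libraries of each mark, whose deposited lists are named RAS (replicates 3 and 4). A region was a stretch of chromosomes 1 to 19 covered in both RAS-named H3K27ac lists, with gaps of up to 1 kb closed and a length from 200 bp to under 15 kb. It was kept if it overlapped an H3K4me1 peak and an H3K79me2 peak in both RAS-named lists and had no H3K4me3 peak of any of the 4 libraries within 1 kb. Since these values chose the members, the peaks of the RAS-named H3K27ac, H3K4me1 and H3K79me2 lists and of all H3K4me3 lists are given below as a description, with no test. Retention means here that a member shares at least 1 bp with a peak of a list named MLL (replicates 1 and 2).

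H3K27ac, set by acetyltransferases such as p300 and CBP, marks active enhancers and promoters. H3K4me1 is found widely at enhancers and is set there largely by MLL3 and MLL4, the latter being the methyltransferase whose gene is floxed in some mice of the study. H3K79me2 is set by DOT1L and spreads over the first part of transcribed genes, so an enhancer under it usually lies within a gene that is being transcribed. H3K4me3 marks active promoters, and its absence nearby is the reason for the word distal.

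Chromatin immunoprecipitation followed by sequencing was done on lung tumours of K-RasLSL-G12D mice and of K-RasLSL-G12D;Mll4fl/fl mice, both after Ad-CMV-Cre, an adenovirus that carries Cre recombinase under a viral promoter that works in many cell types. All groups thus share the activated K-Ras allele and the adenoviral Cre. The labels give no library's genotype, the age of the mice or whether tumours were pooled, so RAS-named and MLL-named are used below as names of lists and not as genotypes. The tumour tissue is a mixture of cells, and fewer cells with a mark and less of the mark per cell cannot be told apart. A library of the 24 lists held 5224 to 96068 peaks, and its read depth is unknown.

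Of the 25327 H3K27ac regions, 13878 overlapped H3K4me1 in both RAS-named lists, and 9071 of these had no H3K4me3 peak nearby. Among the 9071 distal regions, 3038 (33.5%) had H3K79me2 in both RAS-named lists, 740 had it in 1 list and 5293 in neither. The 5293 regions outside H3K79me2 are the set compared with the members below. Members had a median length of 2792.5 bp, with quartiles of 1462 and 5076 bp, and together spanned 11.5 Mb. The outside regions were of like length, with a median of 2808 bp. At the lower limit the shortest members were 220 and 235 bp long, and the longest regions that failed only on length were 190 and 183 bp. At the upper limit the longest members were 14855 and 14830 bp long, and the nearest excluded regions 15049 and 15099 bp. Of the regions that met all other criteria, 113 were too long and 9 too short.

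In the MLL-named H3K4me1 libraries, 1937 of the 3038 members (63.8%) held a peak in replicate 1 and 2467 (81.2%) in replicate 2. The background over all 25327 H3K27ac regions was 38.4% in replicate 1 and 53.0% in replicate 2. Since H3K4me1 in the RAS-named lists was part of the rule, the 13878 regions with that mark are a closer reference, and they held a peak in 53.8% and 71.7% of cases. A peak was present in both MLL-named libraries at 1810 members (59.6%), against a background of 32.6% and 49.0% of the 13878 regions. It was present in 1 of them at 784 members (25.8%, 26.2% of all regions and 27.4% of the 13878). It was present in neither at 444 members (14.6%, 41.2% of all regions and 23.6% of the 13878). The members missing from a single library were mostly missing from replicate 1, with 657 held by replicate 2 alone and 127 by replicate 1 alone. The replicate 1 list holds 49595 peaks and the replicate 2 list 81432, and the mean over both was 72.5% ± 12.3 (SD, n = 2). With equal numbers of best-scored peaks per list, which also gave fewer members (2387), it was 75.2% ± 6.69.

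Outside H3K79me2, the H3K4me1 shares were lower in both libraries, at 30.2% in replicate 1 and 53.7% in replicate 2. The members exceeded the outside regions by 30.5 ± 4.31 percentage points (mean ± SD, n = 2 libraries). The difference was 14.1 ± 7.14 points when at least 50% of a region had to be covered, where the members' mean share was 15.7%. With 2 libraries an exact sign-flip test cannot give a p below 0.5, so this difference was not tested, but it had the same sign in both libraries and was larger than the spread between them. The members also carried more H3K4me1 where they were chosen: a median of 59.8% of a member's length lay under H3K4me1 in the RAS-named lists, against 35.8% outside. Regions were therefore also compared within classes of H3K4me1 cover. At 60 to 80% cover the members held an H3K4me1 peak in 68.6% and 86.3% of cases in replicates 1 and 2, and the outside regions in 41.6% and 63.2%. In the class of 20 to 40% cover the shares were 52.2% and 70.3% for members and 26.5% and 51.7% outside. The mean gap between inside and outside was 13.1 ± 4.11 percentage points (SD, n = 2) at 0 to 20% cover and 22.1 ± 5.03 at 20 to 40%. It was 20.3 ± 3.88 at 40 to 60%, 25.1 ± 2.83 at 60 to 80% and 31.5 ± 7.70 at 80 to 100%. Members were thus higher in each of these classes and in both libraries, and cover can still differ within a class.

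H3K27ac retention differed between the 2 MLL-named libraries in a way that H3K4me1 did not. Replicate 1 held a peak at 1651 members (54.3%) and replicate 2 at 1836 (60.4%), and both libraries at 1177 (38.7%). The background over all H3K27ac regions was 59.2% in replicate 1, 30.1% in replicate 2 and 25.4% in both. Of the 13878 regions with RAS-named H3K4me1, 64.0% held a peak in replicate 1, 38.9% in replicate 2 and 32.4% in both. In replicate 1 the members' share was therefore below both references, and in replicate 2 above both. Both references contain the members and also regions with an H3K4me3 peak within 1 kb, which the rule kept out of the members. Neither library held a peak at 728 members (24%), against 36.2% of all H3K27ac regions and 29.5% of the 13878.

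Outside H3K79me2, replicate 1 held an H3K27ac peak at 2645 of the 5293 regions (49.97%) and replicate 2 at 476 (8.99%). The members exceeded the outside regions by 27.9 percentage points on average, with an SD of 33.3 (n = 2), so the difference was smaller than the spread between the libraries. It was 4.37 points without the replicate 2 library and 51.4 points without the replicate 1 library. By a touch of at least 1 bp, H3K27ac was thus present more often inside H3K79me2 than outside in both libraries, but most of the mean difference came from replicate 2. The mean difference was 16.2 points with peaks scored 100 or more, and 3.60 points with at least 50% of a region covered. At 50% the shares were 1.68% of members and 2.21% outside in replicate 1, and 7.87% and 0.132% in replicate 2. Within classes of H3K4me1 cover the replicate 1 difference varied: it was -2.29 points at 0 to 20% cover, 6.24 at 20 to 40%, 8.63 at 40 to 60%, 17.3 at 60 to 80% and 21.6 at 80 to 100%. In replicate 2 it was between 31.8 and 61.1 points in these classes. In the class of 60 to 80% the mean over both libraries was 36.9 ± 27.8 points (SD, n = 2).

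**Figure D1:**
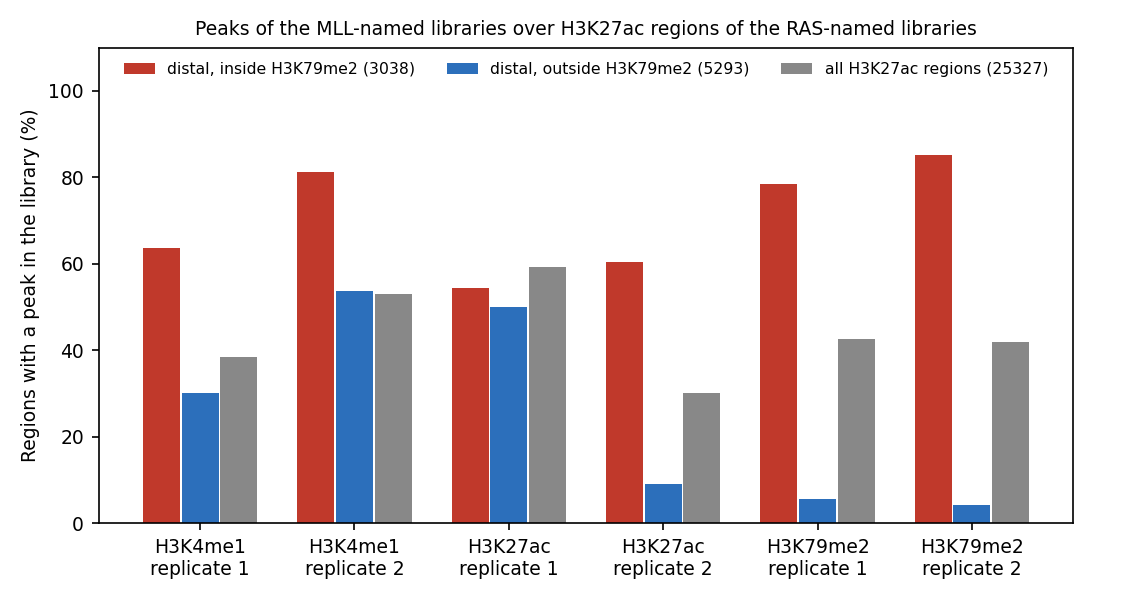
Share of regions (percent, vertical axis) that held a peak in each MLL-named library of H3K4me1, H3K27ac and H3K79me2, for the 3038 members (red), the 5293 distal regions outside H3K79me2 (blue) and all 25327 H3K27ac regions (grey). One bar is 1 library, with no error bar; the red bars stand above the blue in each library, by least in H3K27ac replicate 1 (54.3% against 49.97%).

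The position of the H3K27ac peaks relative to H3K79me2 showed the same contrast within the members themselves. Of the members' 11.5 Mb, 7.51 Mb lay in H3K79me2 domains, defined as bases covered in both RAS-named H3K79me2 lists with gaps of up to 1 kb closed, and 3.99 Mb lay beyond the edge of a domain. H3K27ac replicate 2 covered 19.3% of the bases within a domain and 3.22% of those beyond it. H3K27ac replicate 1 covered 11.4% within and 13.6% beyond. The RAS-named H3K27ac lists covered 96.7% to 97.8% on either side, as the rule demands. H3K4me1 cover was higher within domains in every library, at 19% against 10.6% in replicate 1, 30.1% against 19.4% in replicate 2, and 56.9% against 45% and 65.5% against 51.5% in replicates 3 and 4. Among the 8 H3K27ac and H3K4me1 libraries the contrast was widest in H3K27ac replicate 2. The part of this contrast in the retention values of that library was not tested.

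H3K27ac peaks of replicate 2 were also found at members without an H3K79me2 peak of the same replicate number. Of the 448 members without an H3K79me2 peak in replicate 2, 250 (55.8%) held an H3K27ac peak of replicate 2, against 61.2% of the 2590 members with one. In replicate 1 the shares were 51.3% of 653 members and 55.2% of 2385. Outside H3K79me2, 8.73% of the 5074 regions with no H3K79me2 peak in replicate 2 held an H3K27ac peak of that library, against 15.1% of the 219 with one.

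The width of the peaks also moved with the list names. The peaks that touched members had a median width of 222 bp in H3K27ac replicate 1 and 231 bp in replicate 2, against 2530 and 2155 bp in replicates 3 and 4. Over the whole H3K27ac lists the medians were 233 and 216 bp against 2051 and 1702 bp, so this contrast was not particular to the members. A member with a peak held 3.09 and 3.25 H3K27ac peaks on average in replicates 1 and 2, against 1.29 and 1.41 in replicates 3 and 4. Over all members, those without a peak included, the MLL-named H3K27ac peaks covered 12.2% and 13.7% of the members' bases, and at least 50% of the length of 1.68% and 7.87% of the members. Over all H3K27ac regions these values were 17.9% and 7.95% of bases, and 6.89% and 2.21% of regions. The members were thus lower in replicate 1 and higher in replicate 2. H3K4me1 peaks were closer in width, with medians of 288 and 268 bp in replicates 1 and 2 and 450 and 545 bp in replicates 3 and 4. Over the whole H3K4me1 lists the medians were 253 and 232 bp against 347 and 426 bp. The MLL-named H3K4me1 lists covered 16.1% and 26.4% of the members' bases, against 52.8% and 60.6% in the RAS-named lists. Over all H3K27ac regions the MLL-named H3K4me1 lists covered 8.59% and 13.6% of bases, against 28.2% and 32.8% in the RAS-named lists. The part of peak width in the retention values was not tested.

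Retention rose with the length of a member for both marks. Of the 331 members from 500 to under 1000 bp, 49.8% and 70.1% held an H3K4me1 peak in replicates 1 and 2. Among the 779 members from 5000 to under 15000 bp these shares were 77.3% and 91.7%. H3K27ac rose more steeply in replicate 1, from 20.5% to 85.2% between the same classes, and from 50.5% to 76.1% in replicate 2. A longer region has more bases that a peak can touch, and the part of this in the rise was not tested. In each class the H3K4me1 shares of members stood above those outside, which were 16.5% and 35.9% in the class from 500 to under 1000 bp and 41.0% and 68.6% in the longest class. For H3K27ac replicate 1 the longest classes were close, at 85.2% of members and 83.9% of outside regions.

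**Figure D2:**
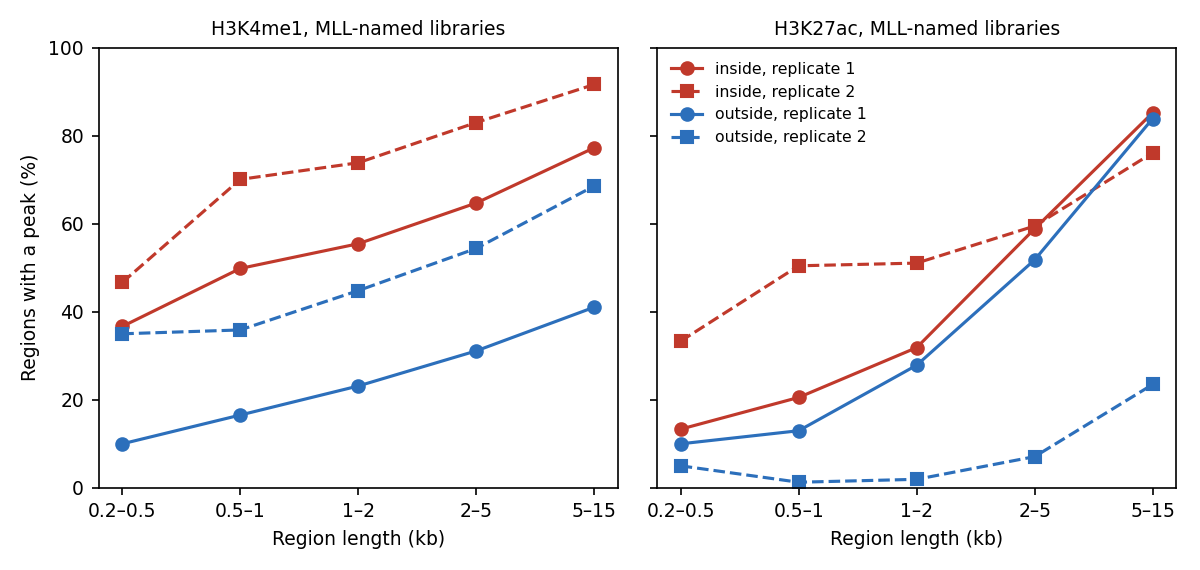
Share of regions with an H3K4me1 peak (left) or an H3K27ac peak (right) in MLL-named replicate 1 (solid, circles) and replicate 2 (dashed, squares), in percent, by class of region length in kb. Red lines are members and blue lines distal regions outside H3K79me2; for H3K27ac the replicate 1 lines run close together, and the replicate 2 lines are far apart.

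The retained and the lost members also differed in the strength of their marks where they were chosen. The best H3K4me1 peak of a member was ranked by its score within its own list, so that a higher percentile means a higher score. Members with an H3K4me1 peak in both MLL-named libraries had median percentiles of 93.5 and 92.5 in RAS-named replicates 3 and 4. The 444 members with no such peak in either had 69.5 and 79.2. They were shorter too, with a median of 1859 bp against 3363 bp. For H3K27ac the median percentiles were 78.0 and 79.5 for the 1177 members kept in both libraries and 44.8 and 51.6 for the 728 kept in neither, with median lengths of 4731 and 1681 bp. The members without a peak in the MLL-named lists were thus, for either mark, shorter regions with lower-ranked peaks.

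Within a replicate number, H3K27ac was found more often at members with H3K4me1 than at those without it, by about as much as over all H3K27ac regions. In replicate 1, 66.9% of the members with an H3K4me1 peak also held an H3K27ac peak, against 32.2% of the members without H3K4me1. In replicate 2 these shares were 66.6% and 33.8%. Over all H3K27ac regions they were 79.3% and 46.7% in replicate 1 and 44.3% and 14.0% in replicate 2. Outside H3K79me2 they were 74.6% and 39.3% in replicate 1, but 12.6% and 4.86% in replicate 2.

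The members fell into 4 classes in each library. Both marks were present at 1296 members (42.7%) in replicate 1 and 1643 (54.1%) in replicate 2, against 30.4% and 23.5% of all H3K27ac regions and 43.1% and 34.7% of the 13878 with RAS-named H3K4me1. H3K4me1 alone was present at 641 and 824 members (21.1% and 27.1%), against 7.92% and 29.5% of all regions and 10.7% and 37.0% of the 13878. H3K27ac alone was present at 355 and 193 members (11.7% and 6.35%), against 28.8% and 6.59% of all regions and 21.0% and 4.14% of the 13878. Both classes stood differently to their references in the 2 libraries. Neither mark was present at 746 members (24.6%) in replicate 1 and 378 (12.4%) in replicate 2, against 32.9% and 40.4% of all regions and 25.3% and 24.2% of the 13878. In replicate 1 the members were thus close to the 13878 regions in the class with both marks and in the class with neither. Over both libraries, 949 members (31.2%) held both marks in both, against a background of 15.7% over all H3K27ac regions and 24.8% of the 13878 with RAS-named H3K4me1. Neither mark in either library was found at 255 members (8.39%), against a background of 23.3% and 14.2% of the 13878. A further 220 members (7.24%, background 3.89%, 5.49% of the 13878) held H3K4me1 in both libraries and H3K27ac in neither. The reverse, H3K27ac in both and H3K4me1 in neither, was found at 39 members (1.28%, background 4.11%, 1.98% of the 13878).

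**Figure D3:**
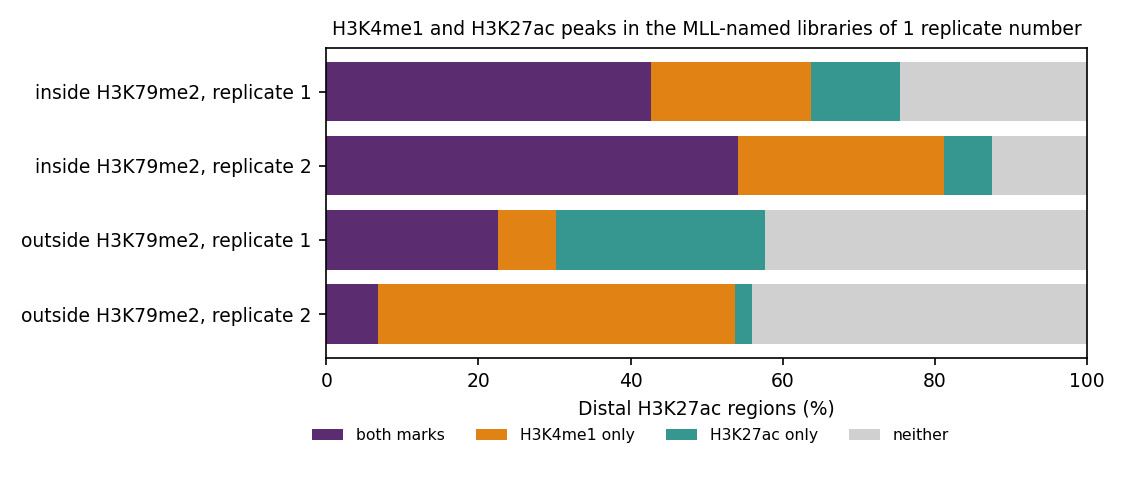
Distal H3K27ac regions (percent, horizontal axis) split by the peaks they held in MLL-named replicates 1 and 2: both marks, H3K4me1 only, H3K27ac only or neither. The upper pair of bars are members and the lower pair the outside regions; both marks were present at 42.7% and 54.1% of members and at 22.5% and 6.74% of outside regions.

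The longest members with both marks in both MLL-named libraries show how partial this retention could be. Positions are in build mm9, which the submitters' processing notes name. The member chr7:119965685-119980539 lay 33535 bp from the nearest H3K4me3 peak. H3K27ac peaks covered 93.5% and 92.4% of it in replicates 3 and 4, and 23.5% and 10.5% in replicates 1 and 2. H3K4me1 covered 30.2% and 40.2% in replicates 3 and 4 and 7.02% and 8.22% in replicates 1 and 2. H3K79me2 went the other way, with 77.8% and 70.6% in replicates 1 and 2 and 37.3% and 25.2% in replicates 3 and 4. The enhancer marks thus covered less of this member in the MLL-named libraries, and H3K79me2 more.

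Cover was higher at chr12:17727385-17742156, which lay wholly within an H3K79me2 domain of 76.8 kb. Its H3K4me1 cover was 50.4% and 56.5% in replicates 1 and 2, against 71.8% and 88.8% in replicates 3 and 4. Its H3K27ac cover was 40.3% and 56.4% in the MLL-named libraries and complete in both RAS-named ones. The member chr15:83270417-83285171 was alike, with H3K4me1 over 56.9% and 59.5% and H3K27ac over 32.5% and 47.9% of its length in replicates 1 and 2. H3K79me2 was present over the whole of it in replicate 1 and absent in replicate 2, while at the chromosome 12 member it was absent in replicate 1 and complete in replicate 2. The other long members of this class were chr6:134964977-134979806, chr18:65248405-65263062 and chr1:73999803-74014290. Their H3K27ac cover in replicates 1 and 2 was 10.3% and 8.17%, 7.15% and 24.5%, and 11.7% and 1.59%, in that order.

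The longest member with neither mark in either MLL-named library was chr16:32734935-32747983, of 13049 bp. H3K27ac covered all of it in replicate 3 and 98.8% in replicate 4, and H3K4me1 covered 31.5% and 36.7%. H3K79me2 covered 48.5% and 43.2% in replicates 3 and 4 and 17.9% in replicate 2. The next was chr4:149988682-150000478 (11797 bp), whose H3K4me1 cover in the RAS-named lists was 17.7% and 29.2%. They lay 48900 and 42865 bp from the nearest H3K4me3 peak. The other 4 of the 6 longest were between 6846 and 7752 bp long. One of them, chr6:113665904-113673538, had strong H3K4me1 where it was chosen, over 71.1% and 90.5% of its length, and no base of it in replicates 1 and 2. H3K79me2 was kept at some of these regions: at chr11:120543326-120550171 it covered 100% and 97.7% in replicates 1 and 2, more than the 11.3% and 33.0% in replicates 3 and 4.

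**Figure D4:**
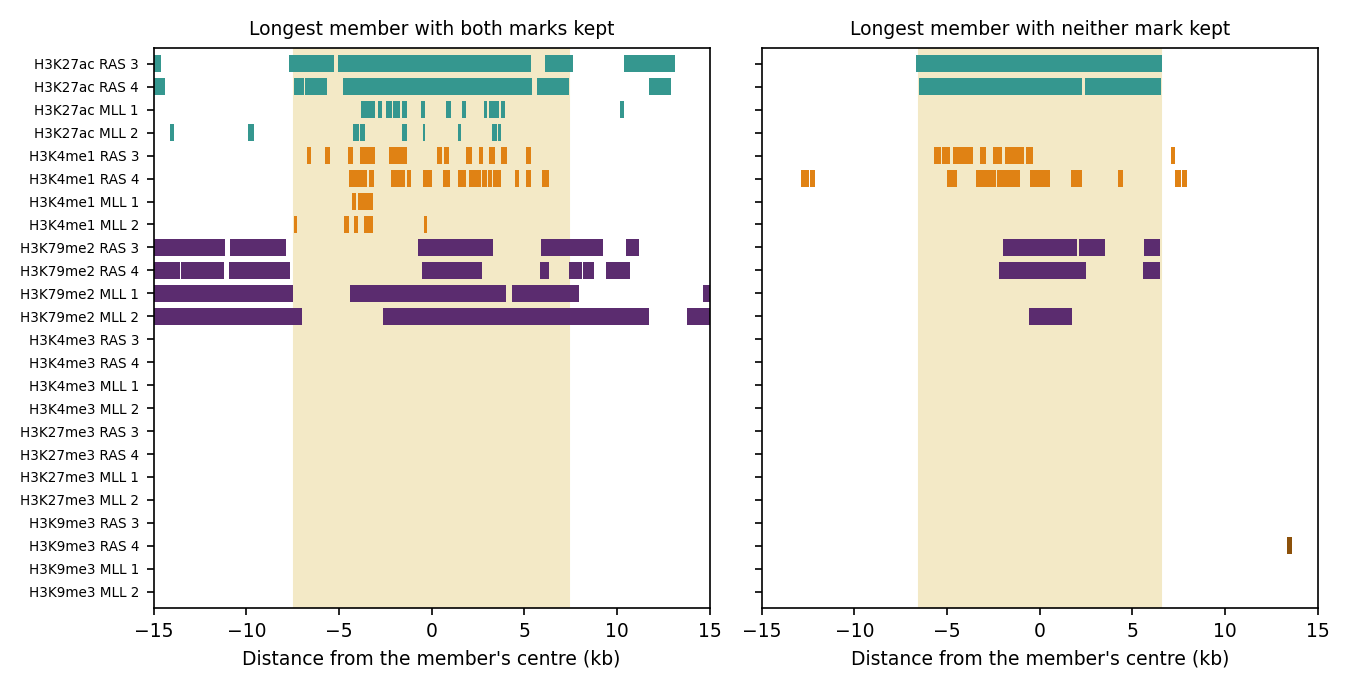
Peaks of all 24 libraries within 15 kb of the centre of the longest member with both marks in both MLL-named libraries (left) and the longest member with neither mark in either (right). The horizontal axis is the distance from the centre in kb, each row is 1 library, bars are peaks and the shaded band is the member; in the left panel the MLL-named H3K27ac peaks cover 23.5% and 10.5% of the band, and in the right panel none of it.

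Among the 39 members with H3K27ac but not H3K4me1 in both MLL-named libraries, the median H3K27ac cover was 9.12% and 14.7% in replicates 1 and 2. In the 949 members with both marks in both it was 16.7% and 17.9%. The longest of the 39 was chr6:17446389-17459875, with H3K27ac over 3.58% and 4.56% of its length in replicates 1 and 2 and H3K4me1 over 57.7% and 58.6% in replicates 3 and 4. At chr19:18839985-18851645 and chr18:74770684-74781117 the H3K27ac cover in replicates 1 and 2 lay between 1.73% and 4.02%. The 220 members with the opposite pattern had a median H3K4me1 cover of 23.9% and 33.7%. The longest of them was chr3:96554458-96564322, with H3K4me1 over 2.07% and 8.58% in replicates 1 and 2 and no H3K27ac there. The next in length, chr18:21310707-21319297 and chr11:59998577-60007141, held H3K4me1 over 2.32% to 10.7% of their length in these libraries.

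H3K79me2 itself was kept at more members than either of the other marks. Replicate 1 held an H3K79me2 peak at 78.5% of members and replicate 2 at 85.3%, against a background of 42.6% and 42.0% over all H3K27ac regions. Both libraries held one at 2195 members (72.3%, background 37.0%), and neither at 258 (8.49%, 52.4% of all regions). H3K79me2 in the RAS-named lists was part of the rule for members and not for all regions, so nothing is read from these differences. At regions outside H3K79me2 in the RAS-named lists, the MLL-named lists held H3K79me2 at 5.67% and 4.14%. The H3K79me2 peaks over members were wide, with medians of 9882 and 13081 bp in replicates 1 and 2 and 7212 and 2504 bp in replicates 3 and 4.

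The members lay in 2183 of the 19984 H3K79me2 domains (10.9%), and 42 members touched peaks of both lists but no shared base. The domains that held a member were long, with a median of 9759 bp against 2433 bp over all domains. A single member was found in 1705 domains, 2 in 303 and 3 or more in 175. An H3K4me3 peak of any library overlapped or lay within 1 kb of 896 of the domains with a member (41.0%). The same share over all 19984 domains is not given here, so nothing is read from this value. Of all members, 1619 (53.3%) lay wholly within a domain. The median distance from a member to the nearest H3K4me3 peak was 14.8 kb, against 28.4 kb for regions outside H3K79me2.

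Distance to H3K4me3 made little difference to the retention of H3K4me1. Members under 5 kb from an H3K4me3 peak held H3K4me1 in 63.6% and 80.7% of cases in replicates 1 and 2, and those at 50 kb or more in 61.0% and 77.7%. H3K79me2 fell over the same range, from 89.0% to 70.8% in replicate 1 and from 90.2% to 76.9% in replicate 2. Between the same 2 classes H3K27ac went from 49.0% to 55.2% in replicate 1 and from 62.2% to 52.1% in replicate 2. The 1457 members whose domain was counted as holding H3K4me3 kept H3K4me1 more often than the 1539 in domains without it. The shares were 70.4% against 58.0% in replicate 1 and 85.4% against 77.3% in replicate 2. H3K27ac went opposite ways in the 2 libraries, with 50.8% against 57.6% in replicate 1 and 73.3% against 49.1% in replicate 2. These 2 groups of members also differed in length, with medians of 2328 and 3216 bp, and the part of length was not tested.

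The length of the H3K79me2 domain moved with the 3 marks in different directions. From domains under 5 kb to domains of 40 to 80 kb, the share of members with H3K4me1 went from 52.2% to 76.9% in replicate 1 and from 71.9% to 90.02% in replicate 2. H3K27ac went from 36.8% to 81.2% in replicate 2 but from 58.3% to 51.0% in replicate 1. The members themselves were longer in domains under 5 kb, with a median of 3811 bp against 2426 bp in domains of 40 to 80 kb. The part of member length in these shares was not tested. H3K79me2 was highest at domains of 5 to 40 kb, between 82.6% and 91.9% in both libraries, and was 55.3% and 70.7% at the 441 members in domains of 40 to 80 kb. In the last class, domains of 80 kb or more, H3K79me2 was lower still, at 39.6% and 48.5%. H3K4me1 was there at 66.3% and 85.1%, below the class of 40 to 80 kb, and H3K27ac at 56.4% and 81.2%.

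Whole domains were also missing from a list, at both ends of the range of lengths. Of the 13939 domains under 5 kb in the RAS-named lists, 19.6% had no base in H3K79me2 replicate 1 and 14.6% none in replicate 2. Of the 3064 domains of 5 to 10 kb, 5.87% and 4.70% had none. Of the 241 domains of 40 to 80 kb, 24.5% and 19.9% had none, although the median cover of such domains was 96.1% and 98.9%. In the opposite comparison no rise with length was seen: of the 259 domains of 40 to 80 kb built from the MLL-named lists, 1 had no base in replicate 3 and none lacked a base in replicate 4. Missing from both MLL-named lists were 8.05% of the domains under 5 kb and 7.47% of those of 40 to 80 kb. Of the 19 domains of 80 kb or more, 7 had no base in replicate 1 and 3 none in replicate 2. The cause was not tested.

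**Figure D5:**
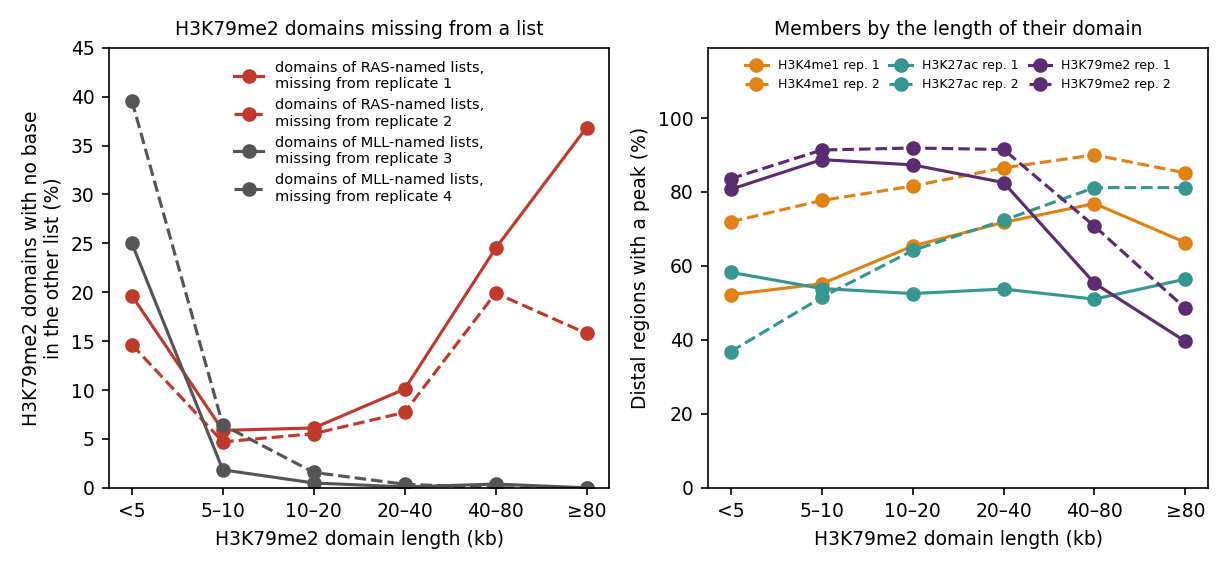
Left: share (percent) of H3K79me2 domains of the RAS-named lists with no base in replicate 1 or 2 (red), and of domains of the MLL-named lists with no base in replicate 3 or 4 (grey), by domain length in kb. Right: share of members with a peak of each mark in MLL-named replicates 1 (solid) and 2 (dashed) by the length of their domain; H3K79me2 is lower from 40 kb upwards, H3K4me1 is highest at 40 to 80 kb and lower again in the last class, and the class of 80 kb or more has 19 domains of the RAS-named lists.

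The 3 domains with the most members were little or not covered by H3K79me2 in the MLL-named lists. The domain chr8:125423336-125565971, of 142.6 kb, held 10 members and was covered over 99.9% and 99.5% by H3K79me2 in replicates 3 and 4 and over none of its length in replicates 1 and 2. All 10 members held H3K4me1 in both MLL-named libraries, 4 held H3K27ac in replicate 1 and 10 in replicate 2. The domain chr14:120675530-120778390, also with 10 members, was covered over 16.5% in each MLL-named list, against 99.5% and 96.6%. H3K4me1 was present at 9 and 10 of its members and H3K27ac at 7 and 10 in replicates 1 and 2. In chr5:136956831-137043209, with 8 members, H3K79me2 covered none in the MLL-named lists. H3K4me1 was present at 4 and 7 members and H3K27ac at 7 and 8. Each of these domains held 1 stretch of H3K4me3. Peaks of the same H3K79me2 lists lay close to some edges: at the chromosome 8 domain the nearest was 2.22 kb away in replicate 1 and 0.931 kb in replicate 2, and at the chromosome 5 domain 1.15 and 0.544 kb. A stretch without a peak in these lists does not show that the mark was absent there, since the reads were not analysed here. How the peak caller treats very wide stretches was not tested, and this limit holds for all H3K79me2 shares in long domains above.

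The 2 RAS-named lists give a measure of how often 2 libraries of 1 name share such regions. They are also alike in cover: the RAS-named H3K4me1 lists cover 46.8 and 55.6 Mb and the MLL-named ones 15.5 and 24.9 Mb. For H3K27ac these values are 114.5 and 112.4 Mb against 19.9 and 22.1 Mb. The part of cover in the shares below was not tested. When the rule was applied to replicate 3 alone, it gave 4433 regions, and 89.0% of them held an H3K4me1 peak in replicate 4, which had no part in that choice. The shares in MLL-named replicates 1 and 2 were 57.2% and 75.2%. For H3K27ac the share was 77.9% in replicate 4, against 45.6% and 53.3% in replicates 1 and 2. For H3K79me2 it was 85.4%, against 77.7% and 82.8%. Chosen on replicate 4 alone, 4056 regions held H3K4me1 in replicate 3 in 89.1% of cases and H3K27ac in 77.7%. The MLL-named shares were again lower, at 55.5% and 73.4% for H3K4me1 and 44.9% and 55.0% for H3K27ac. H3K79me2 was present at 89.9% in replicate 3, against 74.4% and 80.8%.

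Chosen the other way, the rule applied to both MLL-named lists gave only 554 regions, and nearly all were shared with the RAS-named lists. Of these, 95.8% and 96.0% held H3K4me1 and 96.2% and 93.9% held H3K27ac in replicates 3 and 4. The rule applied to replicate 1 alone gave 1799 regions, and their H3K27ac share was 93.1% and 87.9% in RAS-named replicates 3 and 4 but 57.0% in MLL-named replicate 2. For H3K4me1 the 3 shares were 88.6%, 87.1% and 85.5%, and for H3K79me2 81.6%, 76.8% and 81.8%. Regions of replicate 1 were thus found more often in the RAS-named H3K27ac lists, which cover 112.4 and 114.5 Mb, than in the other MLL-named one, which covers 22.1 Mb.

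H3K27me3, the Polycomb mark of silenced genes, and H3K9me3, a mark of heterochromatin, had no part in the rule and were measured in all 4 libraries. H3K27me3 peaks touched 11 of the 3038 members (0.362%) in any library, against a background of 3.00% over all H3K27ac regions. The number was 0, 4, 5 and 2 members in replicates 1 to 4. The share was 0.0905% ± 0.0730 of members and 0.567% ± 0.477 of outside regions (SD, n = 4), lower at members in 4 of 4 libraries. The exact two-sided sign-flip test on the difference of -0.476 percentage points gave p = 0.125, the smallest it can give with 4 libraries, and 0.375 after Benjamini-Hochberg adjustment over 3 tests. The difference was -0.287 points without replicate 3 and -0.141 when at least 50% of a region had to be covered.

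H3K9me3 touched 2 members each in replicates 1, 2 and 3 and 675 members (22.2%) in replicate 4. The background over all H3K27ac regions was 7.37% in replicate 4, and 7.45% in any of the 4 libraries, and of the 13878 regions with RAS-named H3K4me1 12.7% held a replicate 4 peak. Members had the higher share in 2 of 4 libraries. The mean over 4 libraries was 5.60% ± 11.1 of members and 1.85% ± 3.52 of outside regions (exact two-sided sign-flip p = 0.875, adjusted 0.875), and the difference of 3.76 percentage points was -0.0223 without replicate 4 and 0.0704 with at least 50% of a region covered. H3K27me3 and H3K9me3 shares at members did not differ beyond the spread between libraries (difference -5.51 percentage points, exact two-sided permutation p = 0.83, adjusted 0.875, n = 4 libraries each). This difference was made by H3K9me3 replicate 4, without which it was 0.0329 points, and it was -0.0741 points with at least 50% of a member covered.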

How the data were processed

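ChIP-seq peak lists of 6 marks, 4 libraries each, were used; the 4 input samples were not analysed here. Per the submitters' processing notes, CASAVA 1.7, Bowtie, MACS, deepTools and build mm9 were used, with no role stated. Each deposited list gives positions and 1 score per peak, the authors' own value, whose minimum was 50. Depth is unknown, so no counting interval was given. Groups and replicate numbers came from the titles. The names RAS and MLL came from the deposited lists and served only to apply the rule, because no label gives the tumour type.

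Python 3.11.15 with numpy 2.4.6, pandas 2.3.3 and scipy 1.17.1 was used. Overlap meant at least 1 bp. The interval steps were tested on simulated data. Exact tests ran over libraries, and p-values were adjusted over 3 tests. Where nothing says that libraries are separate animals, p-values measure the spread between libraries. Regions named were the longest of each class of retention and the domains with most members. No genome or annotation of build mm9 was used here, so regions have no gene names or sequences. The members and lists were chosen with earlier results of these data known.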

Additional observations from a re-analysis of the deposited data

Results flagged for a closer look

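H3K9me3 replicate 4 stood apart from the other 3 H3K9me3 libraries in 4 of 8 groups of 4 values examined for H3K27me3 and H3K9me3, by Dixon's criterion. About 1 in 20 groups passes it by chance, and the 4 groups share this library. Its peaks touched 22.2% of members, against 0.0658% in each of the others, and covered 3.41% of the members' bases, against at most 0.00711%. At distal regions outside H3K79me2 it touched 7.12% of regions, against at most 0.132%, and covered 0.824% of bases, against at most 0.0188%. The 675 members with such a peak were longer than the other 2363, with medians of 4852 and 2354 bp, and had more RAS-named H3K4me1, over a median of 71.2% against 56.3% of their length. They also held H3K4me1 more often in the MLL-named lists, at 78.96% and 91.1% against 59.4% and 78.4%, but H3K79me2 less often, at 74.8% and 83.1% against 79.6% and 85.9%. The cause was not tested.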

How the results depend on the processing

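Of 99 values under other settings, 81 kept their direction and moved by no more than the spread between libraries (for the number of members, by no more than 1.5 times), 16 moved by more and 2 reversed. The number of members was 4642 with no gaps closed and 1898 with peaks scored 100 or more. Mean H3K4me1 retention, 72.5% as reported, was 54.4% with peaks scored 100 or more, 15.7% when at least 50% of a member had to be covered and 59.97% for members from 500 to under 1000 bp. Mean H3K27ac retention, 57.4% as reported, was 32.3%, 4.77% and 35.5% under the same settings. It was 46.9% with equal numbers of best-scored peaks, 62.3% with peaks within 500 bp and 41.5% for members from 1000 to under 2000 bp. H3K79me2 retention, 81.9% as reported, was 70.5% with 50% of a member covered. The H3K4me1 difference between members and outside regions was 14.1 points with 50% covered and 25.1 points in the class of 60 to 80% H3K4me1 cover, which was added after the data were seen. Without replicate 3 or replicate 4, which chose the members, there were 4056 and 4433 of them; replicates 1 and 2 bear on that number only through H3K4me3 and were not left out there. The H3K27ac difference, 27.9 ± 33.3 points as reported, was 3.60 points with 50% covered and 16.2 points with peaks scored 100 or more, within that SD. Leaving out each replicate number in turn gave 63.8% to 81.2% for H3K4me1, 49.5% to 60.4% for H3K27ac and 77.6% to 85.3% for H3K79me2. The difference from outside regions ranged from 27.5 to 33.6 points for H3K4me1 and from 4.37 to 51.4 points for H3K27ac, lowest without replicate 2. For H3K27me3 it ranged from -0.607 to -0.287, and for H3K9me3 from -0.0223 to 5.03, with the sign reversed without replicate 4. Between H3K27me3 and H3K9me3 it ranged from -7.38 to 0.0329, reversed without replicate 4. Members from replicate 3 or 4 alone differ from the reported set by construction; for the other moves the cause was not tested.

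With the replicate number as a block, the difference between H3K27me3 and H3K9me3 was -5.51 points (exact sign-flip p = 0.875). The labels do not say that a number marks a shared animal. Without read depths, an absent peak cannot be told apart from a weak one in a shallow library.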

Other observations

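The members were spread over all 19 chromosomes used, from 99 on chromosome 14 to 236 on chromosome 5. They made up 12.0% of all H3K27ac regions, from 9.18% on chromosome 10 to 15.1% on chromosome 5.

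H3K4me1 peaks over members ranked high within each H3K4me1 list, at median percentiles of 75.1, 82.3, 88.8 and 89.3 in replicates 1 to 4. At outside regions with a peak they ranked at 52.8, 57.7, 68.8 and 73.3. H3K27ac peaks did not follow this order in each library: the medians over members were 59.4, 67.2, 61.8 and 66.0, and over outside regions 61.6, 38.1, 64.7 and 71.3. The replicates 3 and 4 took part in the choice of both sets.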
